A study of Homo sapiens with 33 samples.

Results

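The transcripts of 33 genes of the amino acid starvation response and the unfolded protein response were followed in NB4 cells treated with all-trans retinoic acid (ATRA). The genes were chosen by name: a row of the count table was taken where its Ensembl identifier maps to a listed symbol. All 33 had 1 row each among the 85160 genes of the table, and all 33 were among the 22971 genes with enough counts to be tested. They were kept in 2 arms. The ATF4 arm holds 18 genes of amino acid starvation, and the ER chaperone arm holds 15 genes of the endoplasmic reticulum (ER), of which 3 are stress sensors. NB4 is an established human line of acute promyelocytic leukaemia, in which myeloid cells stop maturing as promyelocytes, and ATRA, a form of vitamin A, is given to drive their maturation. Cells were collected untreated at 0 h, or after 4, 12, 24, 72 and 120 h with the solvent DMSO or with 1 µM ATRA. Medium with fresh drug was given on day 3, and the labels do not say whether the 72 h cells were taken before or after it. Each of the 11 groups held 3 libraries of total RNA, the biological replicates 2, 4 and 5, and triplets of values below are in that order. The labels do not say which steps the replicates had apart, so p-values measure the spread between these libraries, and all of them come from 1 cell line.

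Lack of amino acids activates the kinase GCN2, and unfolded protein in the ER activates the kinase PERK, encoded by EIF2AK3. Either phosphorylates the translation factor eIF2, which slows protein synthesis while favouring translation of ATF4, a transcription factor that induces genes of amino acid uptake and synthesis. The ER signals in addition through IRE1, encoded by ERN1, which splices XBP1 mRNA, and through the membrane-bound factor ATF6, and these branches induce chaperones and the machinery that degrades misfolded protein. Translation of ATF4, splicing of XBP1 and cleavage of ATF6 are not read by gene counts.

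Start-site windows of both arms are shown first, because the arms are known for different control elements. RefSeq windows (GRCh38.p14, from 250 bases before to 50 bases after a gene's start) were matched for 15 of 18 genes of the ATF4 arm and for 15 of 15 of the ER chaperone arm, and SHMT2, PSPH and SLC7A11 had none. The core of the C/EBP-ATF response element, searched on both strands as TGATGNAA, was in the windows of 6 of the 15 matched ATF4-arm genes and of 1 of the 15 ER genes, HERPUD1, against 4.46% of all 27305 symbols with a window. The matches of SLC3A2 and SLC7A1 lie after the start. The other 4 are shown on the coding strand, with the match in capitals.
ASNS: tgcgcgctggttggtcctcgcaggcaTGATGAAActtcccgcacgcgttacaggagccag
ATF3: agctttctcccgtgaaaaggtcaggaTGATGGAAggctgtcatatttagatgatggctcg
CHAC1: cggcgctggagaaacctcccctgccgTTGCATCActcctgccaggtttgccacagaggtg
SLC1A5: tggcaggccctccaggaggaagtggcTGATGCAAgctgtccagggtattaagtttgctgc
The stretches are at chr7:97872443-97872502 (minus strand, ASNS), chr1:212565190-212565249 (plus, ATF3), chr15:40953236-40953295 (plus, CHAC1) and chr19:46784878-46784937 (minus, SLC1A5). Their first matching base lies inside the window, 68, 191, 209 and 97 bases before the gene start that the window is drawn around. RefSeq gives 2 start windows for ASNS, 2 for ATF3 and 3 for SLC1A5, and 1 window of each holds the match. In CHAC1 the match is on the opposite strand.

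The ER stress response element, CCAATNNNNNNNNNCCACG on both strands, was in the windows of 6 of 15 ER genes (HSPA5, HSP90B1, CALR, CANX, PDIA6 and XBP1) and of 0 of the 15 matched ATF4-arm genes, against 0.0916% of all symbols. HSP90B1 holds it 2 times, and 4 of the genes are shown. A match describes the letters of a window and is not evidence of binding.
HSPA5: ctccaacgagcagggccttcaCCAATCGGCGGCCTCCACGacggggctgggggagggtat
CALR: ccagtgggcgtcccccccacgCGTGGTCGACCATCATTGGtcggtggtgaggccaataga
HSP90B1: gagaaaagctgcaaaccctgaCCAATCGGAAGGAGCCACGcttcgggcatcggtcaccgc
XBP1: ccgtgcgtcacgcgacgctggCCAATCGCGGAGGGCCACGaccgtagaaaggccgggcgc
They lie at chr9:125241371-125241430 (minus, HSPA5), chr19:12938363-12938422 (plus, CALR), chr12:103930195-103930254 (plus, HSP90B1) and chr22:28800583-28800642 (minus, XBP1). The matches begin inside the window, 66, 225, 194 and 52 bases before the gene start, in CALR on the opposite strand and in XBP1 in 1 of 2 windows. The shorter unfolded protein response element TGACGTGG was in the window of 1 member, HYOU1, and of 0.927% of all symbols.

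Libraries held 18341456 to 33490654 fragments, with a median of 25927472. Per the column names all libraries of 0, 4 and 12 h were read in lane 4, and at 24, 72 and 120 h replicate 2 was read in lane 2 and replicates 4 and 5 in lane 3. Of 8 promyelocyte and NB4 markers 7 were at 1 CPM or above in untreated cells (KIT was under 0.1), and their summed level ran from 12228 to 13429 CPM untreated, 8807 to 11856 in DMSO and 896 to 7942 in ATRA at 72 and 120 h. Summed markers of mature granulocytes and monocytes were at 260 to 275 CPM untreated, 129 to 358 in DMSO and 2195 to 4465 in ATRA at 72 and 120 h. Of 6 lymphocyte markers 2 were at 1 CPM or above untreated and 3 in ATRA at 72 and 120 h (summed 25.6 to 27.2 and 33.1 to 40.1 CPM), with CD3E and MS4A1 under 0.1 CPM. Of 6 erythroid and megakaryocyte markers 0 and 1 were (0.785 to 0.956 and 2.09 to 3.21 CPM), with HBA1 and HBB under 0.1 CPM. Of 6 epithelial and fibroblast markers 2 and 3 were (21.6 to 31.4 and 12.5 to 28.8 CPM), and of 5 plasma cell markers 2 and 1 (18.7 to 20.8 and 4.4 to 6.32 CPM). The part of other cell types in the results below was not tested. CPM is the count scaled to a common library size. The table's gene models are longer than those of GENCODE 29, by a median of 3.47 times over the members, so levels are compared between libraries and not between genes.

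At each time ATRA was compared with DMSO by edgeR's quasi-likelihood test, and a gene was called at a Benjamini-Hochberg adjusted p under 0.05. Values are log2 changes, ATRA minus DMSO, with their standard error. In bulk RNA a smaller share of cells with a transcript and less of it per cell cannot be told apart. In the ATF4 arm falls outnumbered rises at every time: 2 genes rose and 8 fell at 4 h, 1 and 11 at 12 h, 1 and 10 at 24 h, 2 and 14 at 72 h, and 6 and 10 at 120 h. In the ER chaperone arm 1 rose and 2 fell at 4 h, 1 and 11 at 12 h, 5 and 3 at 24 h, 4 and 8 at 72 h, and 7 and 5 at 120 h. The share of all tested genes called in either direction was 24.7% at 4 h, 38.7% at 12 h, 33.2% at 24 h, 64.7% at 72 h and 70.6% at 120 h. Of all tested genes 12.3% rose and 12.4% fell at 4 h, 20% and 18.7% at 12 h, 17.4% and 15.8% at 24 h, 32.1% and 32.6% at 72 h, and 34.9% and 35.6% at 120 h. So at 72 and 120 h a call by itself sets a gene apart from few others. The median change of the ATF4 arm was -0.14, -0.38, -0.28, -1.09 and -0.45 in order of time, and that of the ER arm -0.10, -0.44, -0.07, -0.29 and 0.12. Over all tested genes the median lay between -0.03 and 0.03.

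**Figure D1:**
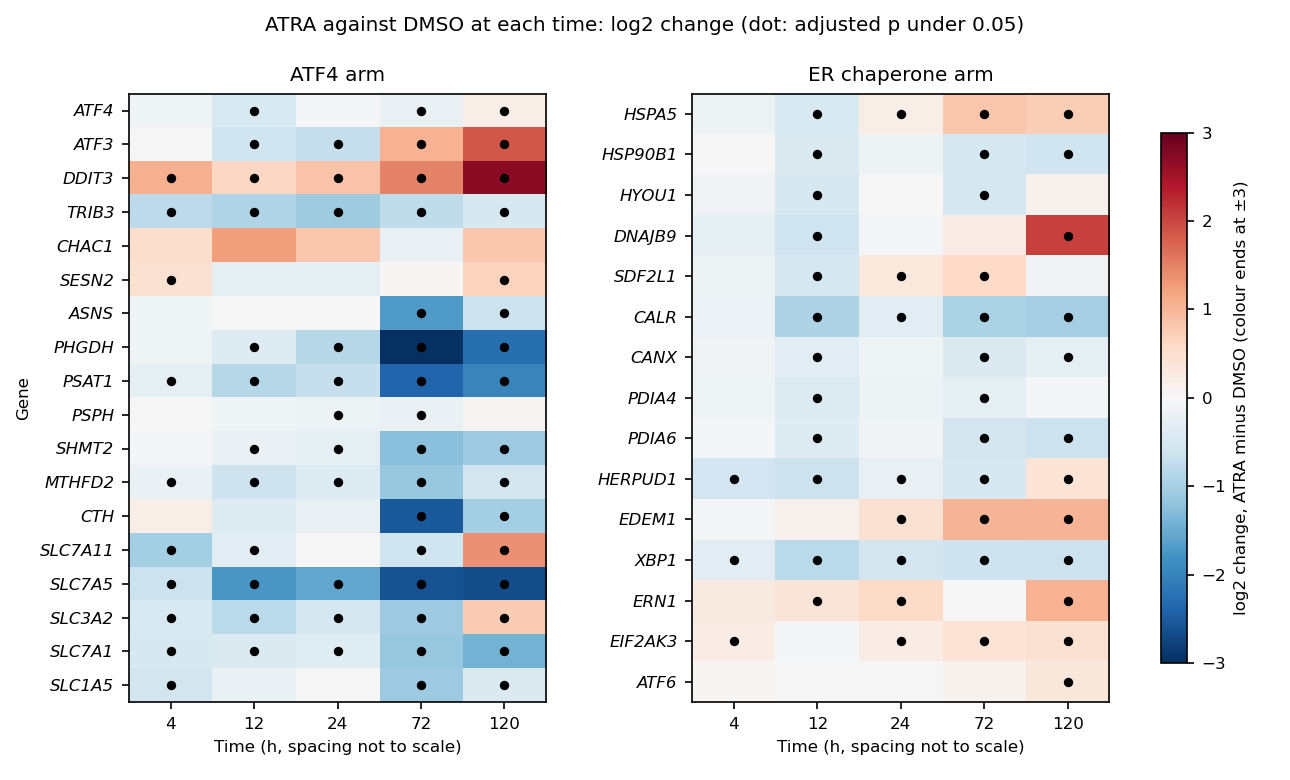
Log2 change of each of the 33 genes, ATRA minus DMSO, by time, with the ATF4 arm left and the ER chaperone arm right. Red is higher in ATRA, blue lower, and a dot marks an adjusted p under 0.05. PHGDH, SLC7A5 and CTH are the deepest blue of the ATF4 arm at 72 h, and the chaperones are blue together at 12 h.

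Among the regulators of the ATF4 arm, DDIT3 rose and TRIB3 fell at all 5 times. DDIT3 encodes CHOP, a C/EBP-family factor of lasting stress (ENSG00000175197, chromosome 12, 57516435 to 57524319, GRCh38). At 4 h it stood at 12, 14.1 and 12.3 CPM in DMSO and at 27.8, 25 and 28.1 CPM in ATRA. At 120 h the DMSO libraries held 19.4, 17.2 and 20.2 CPM and the ATRA libraries 128, 125 and 118 CPM. Groups did not overlap at any time, and the log2 change was 1.07 ± 0.10 at 4 h (adjusted p = 3.69e-11), 0.63 ± 0.10 at 12 h, 0.85 ± 0.10 at 24 h, 1.49 ± 0.09 at 72 h and 2.70 ± 0.10 at 120 h (adjusted p = 2.39e-25), the last a 6.51-fold rise. DDIT3 lies opposite MARS, and the counting used strand per the file headers.

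TRIB3 encodes a pseudokinase that ATF4 and CHOP induce and that inhibits AKT (ENSG00000101255, chromosome 20, 362835 to 401606). It stood at 101, 107 and 111 CPM in DMSO and 53.3, 50.7 and 48.2 CPM in ATRA at 24 h. At 72 h both groups were higher, with 397, 408 and 355 CPM in DMSO and 212, 222 and 249 CPM in ATRA. The groups stayed apart at both times, and the log2 change of TRIB3 was -0.78 ± 0.08 at 4 h, -0.91 ± 0.08 at 12 h, -1.07 ± 0.08 at 24 h, -0.76 ± 0.08 at 72 h and -0.47 ± 0.08 at 120 h (largest adjusted p = 2.11e-06). Against untreated cells, at 102, 106 and 119.7 CPM, TRIB3 in ATRA was lower at 4, 12 and 24 h and higher at 72 h (1.06) and 120 h (0.94).

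ATF3, a stress-induced repressor of the same bZIP family, changed direction. In ATRA it stood at 1.74, 1.73 and 2.75 CPM at 24 h, below 3.48, 3.01 and 3.61 CPM in DMSO. At 120 h it stood at 37.6, 36.9 and 38.3 CPM, above 10, 10.1 and 10.7 CPM in DMSO. Its change was -0.59 ± 0.16 at 12 h, -0.69 ± 0.17 at 24 h, 1.04 ± 0.12 at 72 h and 1.87 ± 0.11 at 120 h (adjusted p = 0.0038, 0.00125, 4.96e-10 and 5.02e-18), and -0.01 ± 0.14 at 4 h. SESN2, a sestrin that senses leucine for mTORC1, rose at 4 h (0.45 ± 0.11) and at 120 h (0.66 ± 0.11), with 25.9, 29.2 and 23.7 CPM in DMSO and 41.8, 43 and 39.5 CPM in ATRA at 120 h. At 4 h SESN2 stood at 12.2, 11.9 and 17.8 CPM in DMSO and 18.5, 19.6 and 19.4 CPM in ATRA. Untreated cells held 17.4, 17.1 and 19.8 CPM, so at 4 h DMSO replicates 2 and 4 stood low. SESN2 was not called at 12 and 24 h. With DESeq2 it was called as lower at both times (-0.3 and -0.32, adjusted p = 0.0414 and 0.0378), as with RLE scaling (adjusted p = 0.0458 and 0.0425).

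ATF4 itself fell at 12 and 72 h. At 12 h it stood at 257, 297 and 277 CPM in DMSO and at 191, 210.1 and 203 CPM in ATRA, without overlap, and it fell by 0.46 ± 0.07 (adjusted p = 1.1e-06). At 72 h its change was -0.20 ± 0.07 (adjusted p = 0.0134), and without replicate 5 of ATRA at 72 h this was not called (adjusted p = 0.0544). At 120 h its change was 0.20 ± 0.07 (adjusted p = 0.0119) with overlapping groups, and the call was lost without replicate 2, 4 or 5 of DMSO or replicate 4 of ATRA at 120 h (adjusted p = 0.053, 0.0516, 0.11 and 0.0854). CHAC1, which degrades glutathione, was not called between ATRA and DMSO at any of the 5 times, with 9 to 32 counts over the 3 libraries of a group and a standard error of 0.48 to 0.65. Its value at 12 h (1.26 ± 0.55, adjusted p = 0.0678) was called without replicate 5 of DMSO (1.71, adjusted p = 0.0445) or replicate 2 of ATRA (1.49, adjusted p = 0.0421).

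**Figure D2:**
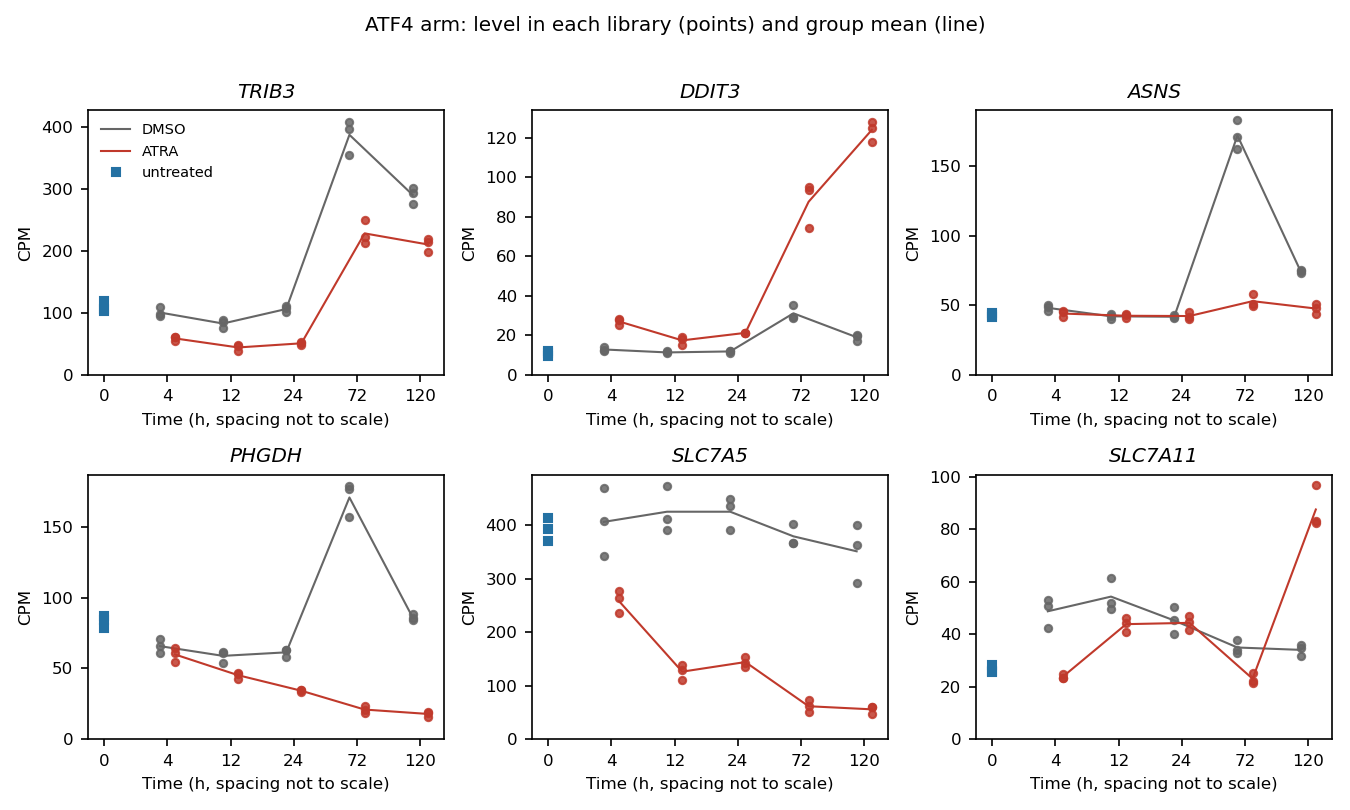
Level in CPM of 6 genes of the ATF4 arm by time in each library (points; untreated squares at 0 h), with lines through the group means. DDIT3 climbs in ATRA to 118 to 128 CPM at 120 h, ASNS and PHGDH peak in DMSO at 72 h, SLC7A5 stays low in ATRA from 12 h on, and SLC7A11 crosses over between 72 and 120 h.

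Of the 7 genes of amino acid and one-carbon synthesis 0 rose at any time, and 2 fell at 4 h, 4 at 12 h, 5 at 24 h, 7 at 72 h and 6 at 120 h. Among all tested genes 12.4% fell at 4 h, 18.7% at 12 h and 15.8% at 24 h. That share was 32.6% at 72 h and 35.6% at 120 h. PHGDH, the first enzyme of serine synthesis (ENSG00000092621, chromosome 1, 119659798 to 119744239), stood at 58.1, 63.1 and 62.9 CPM in DMSO and 33.1, 34.7 and 34.7 CPM in ATRA at 24 h. At 72 h it stood at 179, 177 and 157 CPM in DMSO and 20.8, 23.3 and 18.6 CPM in ATRA, and at 120 h at 88.7, 85.5 and 84.1 against 19.1, 18.6 and 15.9 CPM. The ATRA libraries were below every DMSO library at each of these times, and the change of PHGDH was -0.38 ± 0.08 at 12 h, -0.85 ± 0.08 at 24 h, -3.03 ± 0.08 at 72 h and -2.27 ± 0.09 at 120 h (adjusted p = 7.61e-29 at 72 h). The fall at 72 h is 8.18-fold, and the change against untreated cells was -2.00 at 72 h and -2.23 at 120 h.

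PSAT1, the next enzyme of that pathway, fell at all 5 times, from -0.28 ± 0.08 at 4 h to -2.37 ± 0.09 at 72 h and -1.99 ± 0.09 at 120 h. At 72 h it stood at 121, 99.4 and 94.9 CPM in DMSO and 19.4, 24 and 17.6 CPM in ATRA. Its call at 4 h was lost without replicate 4 of DMSO (adjusted p = 0.0925) or of ATRA (0.0526). PSPH, which completes serine synthesis, changed by -0.16 ± 0.06 at 24 h and -0.19 ± 0.06 at 72 h. The call of PSPH at 24 h was lost without replicate 4 of DMSO (adjusted p = 0.0999) or replicate 5 of ATRA (0.0803). In lane 3 alone PSPH was called neither at 24 h nor at 72 h (adjusted p = 0.0528 and 0.103). Without a filter on low counts both calls were lost as well (adjusted p = 0.308 and 0.0648).

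SHMT2, which moves a carbon from serine to folate in mitochondria, fell by 1.26 ± 0.08 at 72 h and 1.08 ± 0.08 at 120 h. It stood at 365, 356 and 331 CPM in DMSO and 151, 152 and 138 CPM in ATRA at 72 h. The smaller fall of SHMT2 at 12 h (0.19 ± 0.07) was not called without replicate 4 or 5 of DMSO or replicate 2 or 5 of ATRA (adjusted p = 0.106 to 0.135). MTHFD2, the mitochondrial folate dehydrogenase after it, fell at all 5 times, by 0.63 ± 0.06 at 12 h and 1.13 ± 0.07 at 72 h. At 4 h MTHFD2 changed by -0.20 ± 0.06 with overlapping groups, and the call was lost without replicate 2 or 4 of DMSO or replicate 5 of ATRA (adjusted p = 0.0815, 0.175 and 0.0915).

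ASNS, asparagine synthetase (ENSG00000070669, chromosome 7, 97851984 to 97973338), showed no change to 24 h, with values between -0.13 and 0.02. At 72 h it stood at 171, 183 and 162 CPM in DMSO and 51.2, 58 and 49.4 CPM in ATRA, and it fell by 1.70 ± 0.07 (adjusted p = 1.6e-23). The ATRA libraries at 72 h were near the untreated 41.6, 42.6 and 44.2 CPM, and it was the DMSO libraries that stood high. At 120 h ASNS fell by 0.65 ± 0.07. The ASNS model shares 69.2% of its exon length with other genes of the same strand, and fragments there were counted for each gene, so its level is uncertain. CTH, which makes cysteine, fell by 2.53 ± 0.21 at 72 h and 1.02 ± 0.24 at 120 h, from few counts: at 72 h 101, 155 and 143 in DMSO and 23, 18 and 28 in ATRA.

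All 5 amino acid transporter genes fell against DMSO at 4 h, where 12.4% of all tested genes fell, and all 5 at 72 h, where 32.6% did. SLC7A5 encodes the light chain LAT1 of the leucine transporter (ENSG00000103257, chromosome 16, 87829847 to 87871598). At 4 h it stood at 407, 342 and 469 CPM in DMSO and 263, 277 and 236 CPM in ATRA, and at 12 h at 390.1, 473 and 411 against 110.3, 139 and 129 CPM. At 120 h the DMSO libraries held 362, 400.3 and 292 CPM and the ATRA libraries 59.6, 60.2 and 47.1 CPM. Groups did not overlap at any of the 5 times, and the change of SLC7A5 was -0.65 ± 0.11, -1.75 ± 0.12, -1.56 ± 0.11, -2.62 ± 0.12 and -2.66 ± 0.12 in order of time (adjusted p = 1.57e-05 at 4 h and 6.16e-22 at 120 h). In DMSO SLC7A5 was called at no time against untreated cells, with changes from -0.16 to 0.12.

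SLC3A2, the heavy chain shared by LAT1 and the cystine transporter, fell with SLC7A5 up to 72 h and then went the other way. It stood at 306, 328 and 316 CPM in DMSO and 149, 159 and 139 CPM in ATRA at 72 h, and at 201, 214 and 191 against 356, 361 and 312 CPM at 120 h. Its change was -0.46 ± 0.07, -0.81 ± 0.07, -0.50 ± 0.07 and -1.08 ± 0.07 at 4 to 72 h and 0.76 ± 0.07 at 120 h (adjusted p = 9.63e-13). SLC7A11, the light chain xCT of the cystine transporter, fell at 4, 12 and 72 h, was not called at 24 h (-0.02 ± 0.09, overlapping groups) and rose at 120 h. At 4 h SLC7A11 stood at 52.9, 50.8 and 42.3 CPM in DMSO and 23.2, 24.9 and 23.3 CPM in ATRA, while untreated cells held 25.9, 28.1 and 25.6 CPM. At 120 h SLC7A11 stood at 31.5, 34.6 and 35.9 CPM in DMSO and 83.2, 82.3 and 97 CPM in ATRA. So SLC7A11 fell against DMSO at 4 h (1.03 ± 0.09), where DMSO had risen by 0.87 against untreated cells and ATRA changed by -0.16 against them (adjusted p = 0.181), and it rose by 1.36 ± 0.09 at 120 h. Its fall at 12 h (0.31 ± 0.09) was not called without replicate 2 of DMSO at 12 h (adjusted p = 0.0653).

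SLC7A1, the arginine and lysine transporter CAT1, fell at all 5 times, by 0.47 ± 0.08 at 4 h and 1.41 ± 0.08 at 120 h. Its libraries held 223, 239 and 201 CPM in DMSO and 90.3, 88.1 and 71.3 CPM in ATRA at 120 h. At 4 h they held 288, 265 and 312 CPM in DMSO and 219, 215 and 189 CPM in ATRA. Untreated cells held 204, 211 and 201 CPM of SLC7A1, so at 4 h it was the DMSO libraries that stood high. SLC1A5, the glutamine transporter ASCT2, fell at 4 h (0.56 ± 0.11), 72 h (1.10 ± 0.11) and 120 h (0.44 ± 0.11). At 12 and 24 h its groups overlapped, and the change of SLC1A5 was -0.20 ± 0.11 and 0.02 ± 0.11. Of the genes with the C/EBP-ATF core in their window shown above, ASNS and SLC1A5 fell at 72 h, ATF3 rose and CHAC1 was not called. With the other 72 h control given below, ASNS was not called (-0.08, adjusted p = 0.263).

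Other genes of the pathway were read from fixed lists, each with the called gene of largest rise and fall. Beside these counts, 12.3% of all tested genes rose and 12.4% fell at 4 h, and 20% and 18.7% at 12 h. At 72 h 32.1% rose and 32.6% fell, and at 120 h 34.9% and 35.6%. Of 21 cytosolic aminoacyl-tRNA synthetase and export genes, which ATF4 is known to induce, 2 rose and 15 fell at 12 h, 1 rose and 20 fell at 72 h, and 3 rose and 16 fell at 120 h. The largest rise was WARS1, the tryptophan enzyme also known as an interferon-induced gene, at 419.6 ± 22.8 against 124 ± 8.94 CPM at 72 h (SD, n = 3; 1.76) and 831 ± 87.8 against 111 ± 8.14 CPM at 120 h (2.90). FARSB, a subunit of the phenylalanine enzyme, fell by 1.67 at 72 h and 1.91 at 120 h. Of 13 tested genes of other amino acid synthesis and one-carbon steps 0 rose and 12 fell at 72 h and 0 rose and 10 fell at 120 h, with GPT2, the mitochondrial alanine transaminase, at 6.77 ± 1.36 against 115 ± 7.4 CPM at 120 h (-4.08). Of 10 tested transporters of other kinds 0 rose and 7 fell at 4 h, and 3 rose and 7 fell at 120 h. SLC1A4, a serine and alanine transporter, was the largest fall at 72 h (-2.84), and SLC7A7, which exports arginine, the largest rise at 120 h (6.64), at 134 ± 6.82 against 1.36 ± 0.321 CPM.

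Of 13 tested bZIP partners and stress regulators 4 rose and 3 fell at 4 h, 4 and 7 at 12 h, 3 and 6 at 24 h, 4 and 6 at 72 h, and 4 and 6 at 120 h. Among all tested genes 12.3% rose and 12.4% fell at 4 h, and 20% and 18.7% at 12 h. The shares were 17.4% and 15.8% at 24 h, 32.1% and 32.6% at 72 h, and 34.9% and 35.6% at 120 h. CEBPB, a partner of ATF4, was at 113 ± 6.86 against 13.9 ± 2.55 CPM at 4 h (3.02). GDF15, a secreted stress hormone, was at 144 ± 13 against 0.175 ± 0.169 CPM at 72 h (9.72), and EIF4EBP1, a repressor of cap-dependent translation, fell by 2.08. Of 12 genes for eIF2 kinases, its phosphatase and its exchange factor 3 rose and 9 fell at 72 h and again at 120 h. EIF2AK2, the double-stranded RNA kinase PKR, rose by 2.59 at 72 h, and PPP1R15A, which returns eIF2 to its active form, rose by 2.83 at 120 h, at 215 ± 5.78 against 30.1 ± 2.32 CPM. EIF2B3, a subunit of the exchange factor, fell by 1.30 at 72 h.

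All 9 chaperone and folding genes of the ER arm fell at 12 h, where 18.7% of all tested genes fell, and 0 of the 9 was called at 4 h. At 4 h their changes lay between -0.30 and 0.01. With mitochondrial and small RNA genes left out of the fit HSPA5 (-0.17) and CALR (-0.19) were called and 5 members of the arm in place of 3. CALR at 4 h was called as lower also with the replicate block (adjusted p = 0.0473), limma-voom (0.0267) and DESeq2 (0.0286). After 12 h the chaperones parted: HSPA5 and SDF2L1 rose at 24 and 72 h, DNAJB9 rose at 120 h, and CALR, HSP90B1, CANX and PDIA6 fell at 72 and 120 h.

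HSPA5 encodes BiP, the main ER chaperone of the HSP70 family and the protein that holds the sensors inactive (ENSG00000044574, chromosome 9, 125192117 to 125241343). At 12 h it stood at 382, 398 and 408 CPM in DMSO and 287, 295 and 284 CPM in ATRA, and it fell by 0.46 ± 0.07 (adjusted p = 5.61e-07). At 72 h it stood at 199, 178 and 202 CPM in DMSO and 362, 315 and 351 CPM in ATRA, and at 120 h at 381, 381 and 359.7 against 655, 659 and 551 CPM. The ATRA libraries lay below those of DMSO at 12 h and above them at 72 and 120 h, and HSPA5 rose by 0.83 ± 0.07 at 72 h and 0.73 ± 0.07 at 120 h (adjusted p = 9.4e-14 and 1.43e-12). Against untreated cells, at 539.6, 594 and 553 CPM, HSPA5 in ATRA was lower at 72 h (-0.71) and not called at 120 h (0.15, adjusted p = 0.0507), and in DMSO it was lower at all 5 times, by -1.54 at 72 h.

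SDF2L1, a partner of BiP, stood at 26.7, 31.2 and 32.5 CPM in DMSO and 17, 22.5 and 22.8 CPM in ATRA at 12 h. At 72 h it stood at 9.67, 8.39 and 8.78 CPM in DMSO and 14.2, 12.3 and 14.2 CPM in ATRA. Its change was -0.53 ± 0.11 at 12 h, 0.60 ± 0.13 at 72 h (adjusted p = 0.000152) and -0.11 ± 0.12 at 120 h. At 72 h both groups of SDF2L1 were far below the untreated 33, 35.9 and 39.8 CPM, by -2.02 in DMSO and -1.42 in ATRA.

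Of the 5 rises of the ER arm at 24 h, those of EDEM1 and ERN1 kept their call without any 1 library, and the other 3 did not. HSPA5 changed by 0.20 ± 0.07, SDF2L1 by 0.32 ± 0.11 and EIF2AK3 by 0.22 ± 0.08 (adjusted p = 0.0198, 0.0224 and 0.0237). Read in lane 3 alone they were 0.14, 0.23 and 0.23, and none of the 3 was called (adjusted p = 0.279, 0.266 and 0.0658). With RLE scaling and with DESeq2 HSPA5 (adjusted p = 0.0715 and 0.0507) and EIF2AK3 (0.0644 and 0.0788) were not called at 24 h. CANX (0.0344 and 0.00996) and PDIA4 (0.046 and 0.0329), not called in the main fit, were then called as lower. The arm held 8 called genes at 24 h and 5 in lane 3 alone, and 5 without replicate 2 of DMSO, replicate 4 of ATRA or replicate 5 of ATRA. HSPA5 was not called without replicate 2, 4 or 5 of DMSO or replicate 2 or 5 of ATRA (adjusted p = 0.0535 to 0.125), SDF2L1 without replicate 2 of DMSO or any ATRA library (0.0513 to 0.134), EIF2AK3 without replicate 2 or 4 of DMSO or 4 or 5 of ATRA (0.0792 to 0.145), and HERPUD1 (-0.23 ± 0.08) without replicate 5 of DMSO (0.0598) or replicate 4 of ATRA (0.113).

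CALR, calreticulin, a calcium-binding chaperone of glycoproteins (ENSG00000179218, chromosome 19, 12938578 to 12944489), fell at 12, 24, 72 and 120 h. It stood at 2646, 2789 and 2765 CPM in DMSO and 1391, 1519 and 1409 CPM in ATRA at 12 h, and at 1511, 1557 and 1617 against 863, 779.6 and 785 CPM at 72 h. The groups did not overlap, and the changes were -0.92 ± 0.07 at 12 h, -0.32 ± 0.07 at 24 h, -0.95 ± 0.07 at 72 h and -1.0 ± 0.07 at 120 h (adjusted p = 1.7e-13, 0.000612, 1.87e-14 and 2.48e-15). HSP90B1, the ER member GRP94 of the HSP90 family, fell by 0.44 ± 0.08, 0.52 ± 0.08 and 0.60 ± 0.08 at 12, 72 and 120 h, and the disulfide isomerase PDIA6 by 0.39 ± 0.06, 0.55 ± 0.06 and 0.65 ± 0.06. CANX, the membrane-bound relative of calreticulin, fell by 0.35 ± 0.07, 0.44 ± 0.07 and 0.26 ± 0.07 at those times. The CANX model shares 54.6% and the HYOU1 model 31% of exon length with other genes of the same strand, so their levels are uncertain. PDIA4, another isomerase, and HYOU1, which exchanges nucleotide on BiP, fell at 12 and 72 h and were not called at 120 h (-0.05 ± 0.07 and 0.12 ± 0.07). HYOU1 at 120 h was called as higher with RLE scaling (0.22, adjusted p = 0.00343) and with DESeq2 (0.22, adjusted p = 0.00116). It was so too with a stricter filter on low counts (0.15, adjusted p = 0.0239) and without replicate 5 of ATRA (0.19, adjusted p = 0.00638).

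DNAJB9, an HSP40 partner that turns BiP onto IRE1, fell at 12 h (0.60 ± 0.13) and rose at 120 h. At 120 h it stood at 8.68, 7.39 and 9.03 CPM in DMSO and 32.8, 34.3 and 36.5 CPM in ATRA. That rise, 2.04 ± 0.12 (adjusted p = 2.67e-18), was 4.12-fold, and at 72 h the groups overlapped (0.24 ± 0.12).

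**Figure D3:**
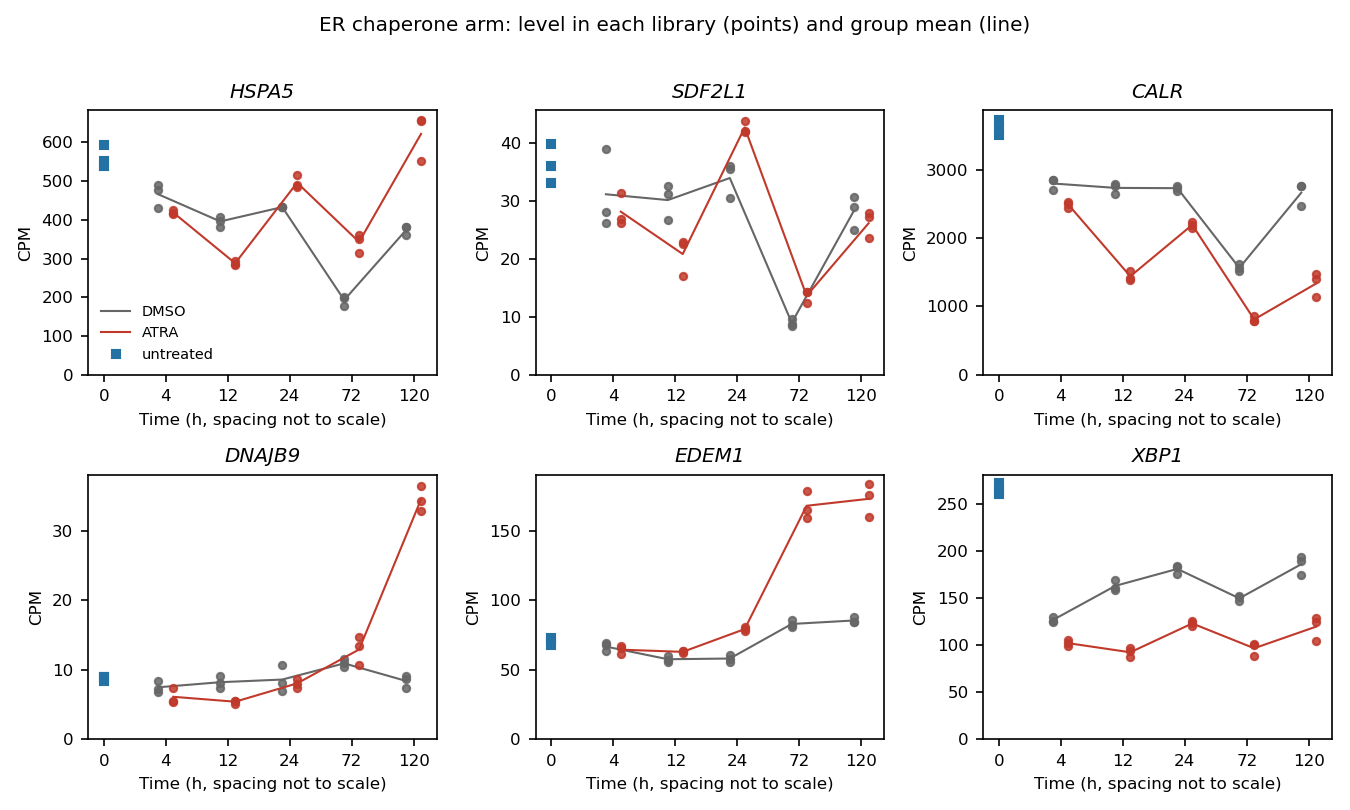
Level in CPM of 6 genes of the ER chaperone arm by time in each library (points; untreated squares at 0 h), with lines through the group means. HSPA5 and SDF2L1 dip in DMSO at 72 h, CALR is lower in ATRA from 12 h, DNAJB9 rises in ATRA at 120 h, and XBP1 is lower than untreated in every DMSO and ATRA library.

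XBP1, the factor whose mRNA IRE1 splices, fell at all 5 times. It stood at 126, 130.3 and 125 CPM in DMSO and 98.9, 102 and 105 CPM in ATRA at 4 h, and at 159, 169 and 161 against 87, 96.6 and 93.5 CPM at 12 h. Groups did not overlap at any time, and the change of XBP1 was -0.32 ± 0.06, -0.82 ± 0.06, -0.56 ± 0.06, -0.63 ± 0.06 and -0.64 ± 0.06 in order of time (largest adjusted p = 0.000176). Untreated cells held 261, 264 and 272 CPM, above every later library, and XBP1 in DMSO was lower than that at all 5 times, by -1.06 at 4 h. Of the 6 genes with an ER stress response element, all fell at 12 h, and at 72 h HSPA5 rose and the others fell.

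The 2 genes of degradation went apart. EDEM1, which draws misfolded glycoproteins to degradation, stood at 60.7, 57.5 and 55.7 CPM in DMSO and 79.4, 77.7 and 80.4 CPM in ATRA at 24 h, and at 84.4, 87.6 and 84.3 against 176, 184 and 160.1 CPM at 120 h. It rose by 0.45 ± 0.06 at 24 h and 1.02 ± 0.06 at both 72 and 120 h. HERPUD1, which recruits the degradation complex, fell by 0.58 ± 0.08 at 4 h, 0.64 ± 0.08 at 12 h and 0.47 ± 0.08 at 72 h and rose by 0.41 ± 0.08 at 120 h. At 120 h HERPUD1 stood at 37.7, 38.5 and 36.3 CPM in DMSO and 50.3, 51.2 and 48.4 CPM in ATRA. It shares 10.1% of its exon length with other genes of the strand.

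All 3 sensor genes were higher in ATRA at 120 h, where 34.9% of all tested genes were. ERN1 stood at 5, 6.08 and 6.02 CPM in DMSO and 11.8, 13.1 and 10.4 CPM in ATRA (1.04 ± 0.11, adjusted p = 1.15e-10). At 72 h ERN1 was as high in DMSO, at 11.4, 14.5 and 12.3 CPM, as in ATRA, at 12.1, 13.6 and 12.7 CPM, and the change was 0.01 ± 0.10. It rose at 12 h (0.38 ± 0.12) and 24 h (0.57 ± 0.12), the first not called without replicate 4 of DMSO at 12 h (adjusted p = 0.0591). EIF2AK3 rose by 0.42 ± 0.07 at 72 h and 0.45 ± 0.07 at 120 h, and its rise at 4 h (0.22 ± 0.07) was lost without replicate 5 of DMSO (adjusted p = 0.108) or of ATRA (0.0685). ATF6 rose at 120 h alone of the 5 times, by 0.35 ± 0.07, from 61.8, 67.6 and 61.6 to 86.4, 82.8 and 73.6 CPM.

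Among other genes of the ER, 2 of 18 folding genes rose and 10 fell at 12 h, and 8 rose and 7 fell at 120 h. TXNDC5, a thioredoxin of the ER, was the largest fall at 120 h (-2.11), at 84.5 ± 11.4 against 365 ± 20 CPM, and ERO1B, an oxidase that feeds the isomerases, the largest rise (1.80). Of 15 genes of ER-associated degradation 9 rose and 3 fell at 72 h and 10 rose and 2 fell at 120 h, with UBE2J1, its ubiquitin-conjugating enzyme, rising by 1.65 at 72 h and the lectin OS9 by 1.62 at 120 h. DERL3, a channel subunit known from secretory cells, fell by 2.48 at 120 h. Of 16 tested genes of translocation, cargo and sensor processing 7 rose and 4 fell at 120 h, with the membrane-bound factor CREB3L2 at 135 ± 9.56 against 31.5 ± 2.41 CPM (2.11) and SRPRB, a signal receptor subunit, at -1.05. Of 7 death genes tied to the response 6 rose and 0 fell at 72 h and at 120 h, with BAK1 rising by 1.59 at 72 h and PMAIP1 (NOXA) by 2.53 at 120 h. The 7 include ERO1A, which is also counted among the folding genes and rose by 0.78 at 72 h. Beside the counts of these lists, 20% of all tested genes rose and 18.7% fell at 12 h. At 72 h 32.1% rose and 32.6% fell, and at 120 h 34.9% and 35.6%.

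The DMSO cultures changed between 24 and 72 h. Of the ATF4 arm 13 genes rose and 2 fell, and of the ER arm 6 rose and 8 fell, where 51.7% of all tested genes were called, 26.2% as higher and 25.5% as lower. The median change was 0.74 in the ATF4 arm, -0.27 in the ER arm and 0.02 over all tested genes. ASNS stood at 40.7, 43.2 and 41.2 CPM at 24 h and 171, 183 and 162 CPM at 72 h (2.04 ± 0.07, adjusted p = 2.16e-24). CTH (2.14), TRIB3 (1.86), SESN2 (1.69), PHGDH (1.47), DDIT3 (1.41) and ATF3 (1.34) rose with it, and so did CHAC1 from its few counts (1.93 ± 0.58, adjusted p = 0.00495). The transporters SLC7A5, SLC7A1 and SLC1A5 were not called (-0.17, -0.02 and -0.10), SLC3A2 rose by 0.54 and SLC7A11 fell by 0.37.

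In the ER arm over the same interval SDF2L1 fell from 30.5, 35.9 and 35.4 to 9.67, 8.39 and 8.78 CPM (-1.93 ± 0.13), HSPA5 from 433, 433 and 432 to 199, 178 and 202 CPM (-1.17 ± 0.07) and CALR by 0.81 ± 0.07. The sensor ERN1 rose from 4.29, 3.4 and 3.87 to 11.4, 14.5 and 12.3 CPM (1.74 ± 0.12). The rises of EIF2AK3 (0.19) and DNAJB9 (0.38) depended on single libraries: EIF2AK3 lost its call without any 1 of replicates 2, 4 and 5 at 24 h or replicates 2 and 4 at 72 h (adjusted p = 0.0594 to 0.214), DNAJB9 without replicate 4 or 5 at 24 h or replicate 2 at 72 h (0.066 to 0.2). Each replicate was read in the same lane at both times. Of 13 tested bZIP partners and stress regulators 11 rose and 1 fell in DMSO, led by STC2, a secreted calcium-binding glycoprotein, at 64 ± 3.58 against 6.36 ± 0.941 CPM (3.35), and among death genes BBC3 (PUMA) rose by 2.57. Among all tested genes 26.2% rose and 25.5% fell over this interval.

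By 120 h much of this had turned back. From 72 to 120 h in DMSO 1 gene of the ATF4 arm rose and 11 fell, and 10 of the ER arm rose and 3 fell, where 40.8% of all tested genes were called, 22.1% as higher and 18.7% as lower. ASNS fell by 1.21, CTH by 1.55 and ERN1 by 1.15, and SDF2L1 rose by 1.66 and HSPA5 by 0.95. Both intervals share the 72 h libraries, which lie at an extreme of the DMSO course for these genes. From 12 to 24 h, where the libraries pass from lane 4 to lanes 2 and 3, 0.988% of all tested genes were called in DMSO and 1 member, TRIB3 (0.37).

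**Figure D4:**
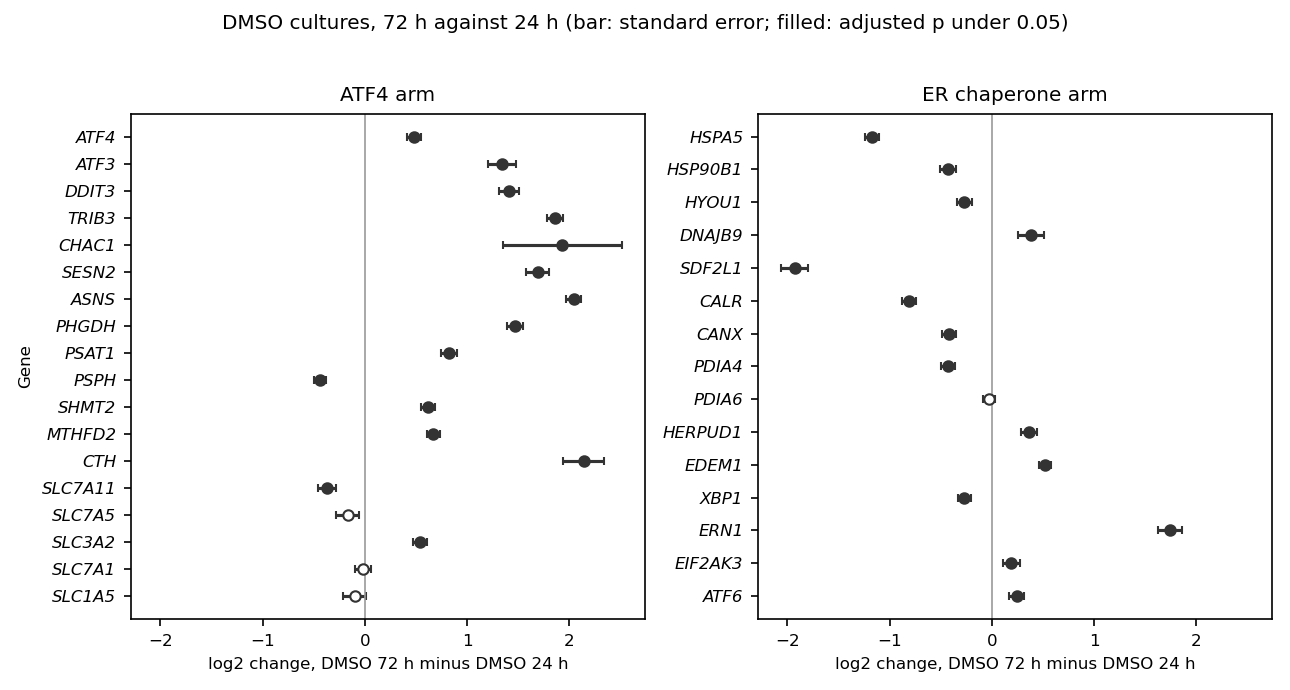
Log2 change of each gene in DMSO cultures, 72 h minus 24 h, with its standard error (bars) and filled points for an adjusted p under 0.05. In the ATF4 arm 13 points lie right of 0 and called, led by CTH and ASNS, and in the ER arm SDF2L1 and HSPA5 lie farthest left and ERN1 farthest right.

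Since the DMSO libraries of 72 h enter the ATRA comparison of that time, it was repeated with the mean of DMSO at 24 and 120 h as control. With it 4 genes turned. TRIB3 was at 0.37 (adjusted p = 6.3e-06) in place of -0.76, HSPA5 at -0.23 (adjusted p = 0.000693) in place of 0.83, SDF2L1 at -1.19 (adjusted p = 1.38e-12) in place of 0.60, and ATF4 at 0.10 (adjusted p = 0.138) in place of -0.20. ASNS was no longer called (-0.08, adjusted p = 0.263). SESN2 (1.12), ERN1 (1.46), DNAJB9 (0.62) and ATF6 (0.25) were called as higher. At 72 h itself SESN2 stood at a mean of 37 CPM in DMSO and 37.8 CPM in ATRA. ERN1 was as high in DMSO as in ATRA, as given above.

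With that control the falls of PHGDH (-1.80 in place of -3.03), CTH (-0.69 in place of -2.53), SHMT2 (-0.79 in place of -1.26), MTHFD2 (-0.66 in place of -1.13) and SLC3A2 (-0.49 in place of -1.08) were smaller by over 1.5 times, as was that of HERPUD1 (-0.19 in place of -0.47). Those of CALR (-1.74 in place of -0.95), HSP90B1 (-1.05 in place of -0.52), CANX (-0.82 in place of -0.44), PDIA4 (-0.75 in place of -0.29) and PSPH (-0.53 in place of -0.19) were larger, and DDIT3 (2.55 in place of 1.49) and ATF3 (1.58 in place of 1.04) were higher still. SLC7A5 (-2.65 in place of -2.62), SLC7A1 (-1.16 in place of -1.14), SLC1A5 (-1.02 in place of -1.10) and EDEM1 (1.25 in place of 1.02) moved by less than 1.5 times. The part of the fresh medium of day 3 in the DMSO values of 72 h was not tested.

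**Figure D5:**
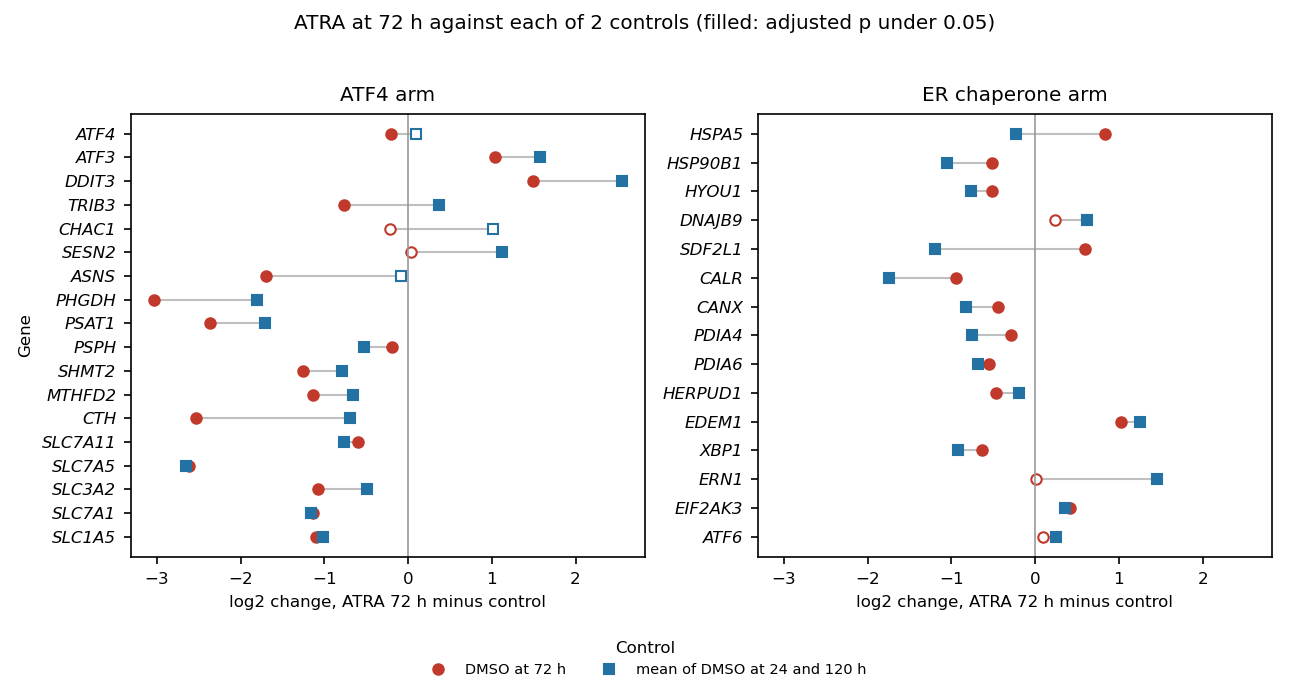
Log2 change of each gene in ATRA at 72 h against DMSO at 72 h (red circles) and against the mean of DMSO at 24 and 120 h (blue squares), with filled symbols for an adjusted p under 0.05. TRIB3, HSPA5 and SDF2L1 lie on opposite sides of 0 with the 2 controls, and SLC7A5 and SLC7A1 keep their place.

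Against untreated cells, which both treatments share as control, the 72 h values stand side by side as follows. ASNS was at 2.00 in DMSO and 0.30 in ATRA, PHGDH at 1.03 and -2.00, SESN2 at 1.03 and 1.06, ERN1 at 1.51 and 1.52, and CALR at -1.21 and -2.16. In DMSO at 120 h 6 genes of the ATF4 arm were higher and 3 lower, and 3 of the ER arm were higher and 8 lower, where 21.9% of all tested genes were called, and without replicate 5 of DMSO at 120 h 7 of the ER arm were called. Untreated libraries were read in lane 4 and those of 72 h in lanes 2 and 3, so lane and time cannot be told apart in these values.

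The ATRA effect itself differed between times in many members, by the test of the difference. From 24 to 72 h it changed in 14 genes of the ATF4 arm and 8 of the ER arm, where 45.9% of all tested genes changed. From 72 to 120 h it changed in 15 and 5, where 39.3% did, and in the ATF4 arm 14 of the 15 moved up against 17.5% of all tested genes, with SLC7A11 by 1.97, SLC3A2 by 1.85, CTH by 1.51 and DDIT3 by 1.21. From 12 to 24 h it changed in 3 and 7, where 6.9% did, and all 7 of the ER arm moved up against 2.5% of all tested genes, with SDF2L1 by 0.85, HSPA5 by 0.66 and CALR by 0.61. From 4 to 12 h it changed in 8 and 6, where 14% did, with SLC7A5 by -1.10, CALR by -0.76 and SLC7A11 by 0.72. Between 4 and 120 h it changed in 14 and 11, where 56.2% did. Neighbouring differences share the libraries of 1 time. Such a difference moves with a change in either culture, and DMSO moved between 72 and 120 h, as given above. Over that interval CTH went from a mean of 0.955 to 0.914 CPM in ATRA and from 5.51 to 1.88 CPM in DMSO. SLC7A11 went from 23 to 87.5 CPM in ATRA and from 34.9 to 34 CPM in DMSO.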

How the data were processed

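RNA of 33 libraries was sequenced as 150 bp paired ends from a stranded total RNA kit, per the labels' protocols. The deposited values are raw fragment counts per gene, made by the authors with featureCounts 1.5.1 in strand-specific paired mode, per the file headers. A fragment over several genes was counted for each, so overlapping genes of a strand share counts. Each library is 1 column and joins 2 technical runs. Per the submitters' processing notes the tools included STAR 2.5.2b, Trimmomatic 0.36 and Subread 1.5.1, and the gene models joined Ensembl and FANTOM CAT on GRCh38, per the file headers. Symbols came from GENCODE 29 (57447 identifiers matched), and start-site windows from RefSeq.

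Genes passing filterByExpr were fitted with edgeR 4.0.16 in R 4.3.3, with TMM scaling (factors 0.827 to 1.11), 1 mean per group over all 33 libraries (biological coefficient of variation 0.0769) and quasi-likelihood tests, adjusted by Benjamini-Hochberg over all genes of a comparison. Standard errors are those implied by the F statistic. The fit was checked on simulated data. Alternatives were DESeq2 1.42.0, limma 3.58.1 (voom), RLE scaling, other filters, a replicate block, the compared groups alone, leaving out each library, another 72 h control and, added after seeing the data, lane 3 alone. Members and lists were chosen with earlier results of these data known. All 33 members are named, and of each wider list the called gene of largest rise and fall with an average log2 CPM of at least 1.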

Additional observations from a re-analysis of the deposited data

Results flagged for a closer look

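The ATRA effect of several members had opposite directions at neighbouring times, each called on both sides and with the difference tested. From 72 to 120 h it moved up by 0.39 (log2) in ATF4, 1.97 in SLC7A11, 1.85 in SLC3A2 and 0.88 in HERPUD1, from 24 to 72 h by 1.72 in ATF3, and from 12 to 24 h by 0.66 in HSPA5 and 0.85 in SDF2L1. The calls of ATF4 at 72 and 120 h and of HSPA5 and SDF2L1 at 24 h were lost without single libraries, as given above.

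Members with an ATRA effect that differed between times, by edgeR's test of the difference, numbered 8 in the ATF4 arm and 6 in the ER chaperone arm from 4 to 12 h, 3 and 7 from 12 to 24 h, 14 and 8 from 24 to 72 h, and 15 and 5 from 72 to 120 h. Between 4 and 120 h they numbered 14 and 11, where 56.2% of all tested genes differed. Over the shorter intervals, in the order above, 14%, 6.9%, 45.9% and 39.3% of all tested genes differed.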

How the results depend on the processing

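Of 363 member values per setting, 346 to 361 kept their direction and their side of the threshold under RLE scaling, no filter, the replicate block, limma-voom, DESeq2 and a fit without mitochondrial and small RNA genes. With the mean of DMSO at 24 and 120 h as control for 72 h the direction turned for ATF4 (0.10), TRIB3 (0.37), HSPA5 (-0.23) and SDF2L1 (-1.19). That control differs from ATRA at 72 h in time as well as in treatment. Genes called in DMSO from 4 to 12 h numbered 849 in place of 2553 with only the groups compared, and from 12 to 24 h 137 so and 346 with DESeq2 in place of 227; the cause was not tested. The ER chaperone arm had 5 called members in place of 3 at 4 h when the fit left out small RNA and mitochondrial genes, and 5 in place of 8 at 24 h in lane 3 alone.

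Leaving out 1 library at a time gave 5 to 6 called ER members at 24 h, 123 to 172 called genes in DMSO from 12 to 24 h, 3214 to 4511 (main 5024) for DMSO at 120 h against untreated cells and 7 to 10 (main 11) ER members there, the lowest 2 of these without replicate 5 of DMSO at 120 h. Over 2178 such values 2070 kept their call, 93 lost it, 15 gained it and 0 turned.

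Replicate numbers were not taken to pair the samples, since deviations of same-numbered DMSO and ATRA libraries did not all correlate above 0.1. They did for replicates 2 and 4 at 12 h (0.185 and 0.186) and 4 and 5 at 120 h (0.106 and 0.2), and the other values lay between -0.0195 and 0.062. From 24 h on the number also sets the lane. With the replicate block 10 and 4 members of the arms were called at 4 h, 13 and 12 at 12 h, 11 and 9 at 24 h, and 16 and 12 at 72 and 120 h. Depth limits CHAC1, with 231 counts in all libraries together.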
